A study of Mus musculus with 451 samples.

Results

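The genes Cd34, Cd44, Ly6a, Thy1, Cd248, Cd55, Scara5, Eng, Tppp3 and Ly6c1 are grouped as surface markers of progenitor and stromal cells, and their rows were taken by symbol from a table of read counts in single tail tendon cells. They were 10 of 48795 symbols in the table, of which 25841 had at least 1 read and 10963 had at least 100 reads over all cells. Of the 10, 9 reached 100 reads. Eng held 33 reads in 5 cells, so the group's name was not borne out for it by the reads counted. Tppp3 encodes a tubulin-binding protein of the cytoplasm and is a tendon progenitor marker without being a surface protein.

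The study compared 227 cells from wild-type (WT) mice with 224 cells from Mkx-/- mice, which lack the tendon transcription factor Mohawk and form ectopic bone in their tendons. All cells came from tail tendons of 4-week-old animals of the C57BL/6 strain, were released with collagenase I, with no sort described, and were captured one to a well on the high-throughput chip of the Fluidigm C1 system. The labels name no animal, litter or chip, and how many mice were pooled is not given in the sources used here. Each genotype was therefore 1 sample, no test between genotypes was possible, and the intervals below cover counting error only.

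Tendon progenitor cells and the fibroblasts of the loose tissue around tendon fascicles share many surface proteins with mesenchymal stromal cells of other organs. Cd34 is a sialomucin, Cd44 is the main receptor for hyaluronan and Cd248 (endosialin) is a lectin-like membrane glycoprotein of stromal cells. Ly6a (Sca-1), Ly6c1, Thy1 and Cd55 are held in the membrane by a glycolipid anchor, Scara5 is a scavenger receptor that binds ferritin, and Eng is a co-receptor for TGF-beta ligands that is abundant in endothelium. Tenocytes, the mature cells between the collagen fibres, are marked by matrix genes and Tnmd instead.

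On the RefSeq annotation of GRCm38.p6, Ly6a (chr15:74994877-74998031) and Ly6c1 (chr15:75044018-75048920) are in the same stretch of chromosome 15, together with Ly6c2 (chr15:75108161-75112066), a near copy of Ly6c1 that is not among the 10. The build behind the read table is not certain, so positions serve here as identifiers only. The transcripts of Ly6c1 and Ly6c2 were identical at 97.98% of 792 aligned bases, yet 43835 reads were counted for Ly6c1 and 28 for Ly6c2. The counting of reads that fit both copies is not given in the sources used here, so part of either count is uncertain. Ly6a and Ly6c1 were less alike, with transcripts identical at 83.25% of 806 aligned bases, and the same uncertainty holds for them. The 250 bases before a listed transcript start are printed here for both genes, as near copies, and for Cd34, Cd44 and Cd55. These were the other genes of the 10 with at least 100 reads that had a listed start in the source used. Their choice rests on that listing and not on a shared behaviour with Ly6c1. The sequences are from RefSeq on GRCm38.p6 and are written on the strand of the gene. Ly6c1 and Ly6c2 have 2 listed starts each, of which the outer one was used, and the other genes have 1. The start used is the outer end of the annotated gene for Cd34 and lies 4 bases inside it for Cd44, 83 for Ly6c1, 95 for Ly6c2 and 2265 for Cd55, so the Cd55 window is wholly within the annotated gene. Capitals mark the letters CCAAT on either strand, a common promoter element. They also mark the TATA box, searched as TATAAA, and the GC box that Sp1 binds, searched as GGGCGG.
Ly6c1 (chr15:75048838-75049087, minus strand): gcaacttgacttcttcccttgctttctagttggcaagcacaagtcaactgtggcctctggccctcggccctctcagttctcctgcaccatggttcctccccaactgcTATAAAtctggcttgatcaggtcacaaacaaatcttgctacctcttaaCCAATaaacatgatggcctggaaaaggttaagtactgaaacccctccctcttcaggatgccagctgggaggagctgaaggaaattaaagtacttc
Ly6c2 (chr15:75111972-75112221, minus strand): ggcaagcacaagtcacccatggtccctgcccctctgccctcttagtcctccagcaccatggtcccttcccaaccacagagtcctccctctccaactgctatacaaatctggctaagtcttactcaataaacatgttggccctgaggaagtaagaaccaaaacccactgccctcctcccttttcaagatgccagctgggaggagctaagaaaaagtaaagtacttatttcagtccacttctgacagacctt
Cd34 (chr1:194938571-194938820, plus strand): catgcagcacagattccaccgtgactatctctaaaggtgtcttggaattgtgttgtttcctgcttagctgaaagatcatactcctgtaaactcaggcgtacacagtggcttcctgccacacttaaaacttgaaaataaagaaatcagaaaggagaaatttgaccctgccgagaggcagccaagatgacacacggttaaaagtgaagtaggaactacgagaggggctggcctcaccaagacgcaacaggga
Cd44 (chr2:102901666-102901915, minus strand): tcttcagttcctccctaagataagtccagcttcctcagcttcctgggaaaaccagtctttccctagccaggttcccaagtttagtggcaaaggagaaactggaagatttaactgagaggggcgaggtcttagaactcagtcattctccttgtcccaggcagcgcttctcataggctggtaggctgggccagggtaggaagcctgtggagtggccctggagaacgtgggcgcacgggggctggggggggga
Cd55 (chr1:130462745-130462994, minus strand): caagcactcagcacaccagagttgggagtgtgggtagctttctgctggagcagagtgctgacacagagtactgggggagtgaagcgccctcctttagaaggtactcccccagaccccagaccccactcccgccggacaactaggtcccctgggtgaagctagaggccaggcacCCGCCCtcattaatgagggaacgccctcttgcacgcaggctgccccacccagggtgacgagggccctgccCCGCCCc

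Across the copies, the printed windows of Ly6c1 and Ly6c2 were identical in 58.97% of 290 aligned columns. The other 3 pairings of their starts ranged from 46.2% to 48.5%. The aligned columns outnumber the bases of a window, so they include gaps, which lower these shares. The printed Ly6c2 window opens with letters found further inside the Ly6c1 window, so the windows are offset. These shares therefore cannot be set beside the identity of the transcripts, and divergence before the starts was not tested. The printed Ly6c1 window held 1 TATA box and 1 CCAAT box by these letters. The window of its other start held neither, nor did either window of Ly6c2. Of 32851 windows of the same length in the annotation, 12.4% held TATAAA, 33.8% held CCAAT and 32.7% held GGGCGG. The Cd55 window held 2 GC boxes, the Cd34 and Cd44 windows held none of these motifs, and the AP-1 letters TGANTCA (6.75% of all windows) were in none of the 5. A match is a run of letters and not a site shown to be bound. Windows were found for 5 of the 10 genes, the fifth being Eng, and Ly6a, Thy1, Cd248, Scara5 and Tppp3 had none in the table used.

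Cells were grouped by clustering on 1678 variable genes with the 10 genes left out, so that no member shaped the states it is described in. A TPC-like state (tendon progenitor-like; 47.1% of the WT cells and 98 Mkx-/- cells) was named from Fstl1, Pdgfra, Dpp4, Pi16, Mfap5, Sema3c and Fbn1, of which 6 of 7 were highest there and Pdgfra was highest in cluster 3. A TC-like state (tenocyte-like; 74 and 80 cells) held the highest level of all 6 of its markers, Col11a2, Col1a1, Col1a2, Sparc, Tnmd and Fmod. The remaining cells (46 and 46), with Mmp10 and Mmp3 as leading genes, had only 2 markers of a named type and are called cluster 3. Cells held 13076 to 335813 reads, with medians of 43122 (WT) and 48487 (Mkx-/-) in TPC-like cells, 36924 and 44244 in cluster 3, and 82854 and 72897 in TC-like cells. For several genes, shares of cells are therefore also given after each cell was thinned to 28000 reads, which 410 cells reached. Levels are counts scaled to a total of 1000000 reads (CPM). Mkx itself stood at 33.8 CPM with reads in 52 of 227 WT cells and at 15.5 CPM with reads in 29 of 224 Mkx-/- cells, nearly all in the TC-like state, and reads outside a deleted part cannot check the label. At least 3 markers of endothelial, mural or immune cells were found in 13 cells, and ratios that changed sign or passed 2-fold without them are named. At least 3 of 5 Schwann cell markers were found in 15 cells, with the list's summed level highest in TC-like cells (268.7 CPM under the WT label, 369.5 CPM under the Mkx-/- label), and at least 3 of 5 cycling markers in 9 cells. These cells were kept throughout, and their part in the results was not tested.

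The 9 genes with at least 100 reads were higher in TPC-like than in TC-like cells in both genotypes. In WT cells all 9 were at least 2-fold higher and 0 at least 2-fold lower, where 36.3% and 9.66% of the 10924 genes compared were. In Mkx-/- cells the counts were again 9 and 0, where 28.7% and 10.3% of 10931 genes were. Their median log2 ratio was 3.001 (range 1.53 to 3.60) in WT and 2.43 (range 1.40 to 3.21) in Mkx-/- cells, against 0.67 and 0.46 for all genes. The 6 TC markers made up 317850 CPM in WT TC-like cells and 27461 CPM in WT TPC-like cells, and the part of this in the all-gene medians was not tested. Measured from those medians, Thy1 (0.86) and Ly6c1 (0.98) came below 2-fold in WT cells and Ly6c1 (0.94) in Mkx-/- cells, and the other members stayed above it. States were drawn from the same cells, so these ratios are descriptions and carry no test. The 10 genes were also chosen with earlier results of these data known, and the study had named its progenitors by Cd44, Thy1 and Ly6a. A count of 9 of 9 was therefore favoured in advance and gives no separate support.

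Ly6a had the most reads of the 10, and it and Ly6c1 were also highest per kilobase of transcript (2177 and 1879 CPM per kilobase over all cells, with the other 7 well-read genes between 92.4 and 318). Whether reads scale with transcript length under this capture method is not given in the sources used here, and these transcripts are short (819 and 840 bases). Undivided, the levels over all cells were 1783 CPM for Ly6a, 1578 CPM for Ly6c1 and 1459 CPM for Cd44. Ly6a is a marker of mesenchymal progenitors in many mouse tissues. Its summed level was 3233 CPM in WT and 3383 CPM in Mkx-/- TPC-like cells, and 519 and 718 CPM in TC-like cells. Single WT TPC-like cells ranged from 38.96 to 8620 CPM with a median of 2943, and WT TC-like cells from 0 to 3132 with a median of 361. The ranges overlapped, and no TPC-like cell lacked a Ly6a read, while 65 of 74 WT and 71 of 80 Mkx-/- TC-like cells had a read. At equal depth those TC-like shares were 72.97% and 83.8%.

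Ly6c1, its relative on the same chromosome, was as widely detected but fell less between the states. It stood at 2465 CPM (WT) and 2393 CPM (Mkx-/-) in TPC-like cells and at 786 and 907 CPM in TC-like cells. Per cell the WT values ran from 0 to 5877 CPM (median 2352) in TPC-like cells and from 0 to 3652 (median 538) in TC-like cells. The TPC-like to TC-like ratio of Ly6c1 was 3.14-fold in WT cells, against 6.23-fold for Ly6a. Reads of Ly6c1 were present in 96.5% of WT and 98.2% of Mkx-/- cells, so its presence alone did not separate the states.

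Cd34, the sialomucin used to sort stromal progenitors, differed between states in its level and in how many cells held it. Its level was 1390 CPM (WT) and 1275 CPM (Mkx-/-) in TPC-like cells and 173.7 and 182.8 CPM in TC-like cells, an 8.01-fold and a 6.97-fold difference. In single WT TPC-like cells it ranged from 0 to 4934 CPM with a median of 1329, and in WT TC-like cells from 0 to 1211 with a median of 18.1. Reads were found in 95.3% of WT TPC-like cells (exact 95% interval 89.4% to 98.5%) and in 55.4% of WT TC-like cells (43.4% to 66.98%). An overlapping gene model, Gm16897, had 348 reads against 18604 of Cd34, and since the strand used in counting is not given in the sources used here, reads of the pair cannot be told apart.

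Cd248 had the largest difference between the states of the 9 members, 12.1-fold in WT and 9.26-fold in Mkx-/- cells. Its level was 785 CPM (WT) and 669 CPM (Mkx-/-) in TPC-like cells and 64.9 and 72.3 CPM in TC-like cells. Among WT cells the per-cell values ran from 0 to 3439 CPM with a median of 534 in the TPC-like state, and from 0 to 554 with a median of 0 in the TC-like state. Cd248 was also the single member among the 10 genes that led the TPC-like state by ratio to all other cells, which Wnt2, Ildr2 and Colec10 headed.

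Cd55, which protects cells from complement, and Scara5, the ferritin receptor, behaved alike between the states. Cd55 stood at 1259 CPM (WT) and 1203 CPM (Mkx-/-) in TPC-like cells and at 138.4 and 153.1 CPM in TC-like cells, a 9.10-fold and a 7.86-fold difference. Scara5 stood at 662 and 800 CPM in TPC-like cells and at 81.9 and 104.99 CPM in TC-like cells, 8.09-fold and 7.62-fold. Scara5 was also the gene whose share of cells with a read fell furthest in WT cells, from 94.4% of TPC-like to 33.8% of TC-like cells (95.7% to 29.7% at equal depth). In WT TC-like cells the medians over cells were 9.17 CPM for Cd55 and 0 CPM for Scara5, with the highest cells at 2029 and 750 CPM. In TPC-like cells the WT medians were 1051 CPM for Cd55 (range 0 to 6140) and 574 CPM for Scara5 (range 0 to 2267). A sequence relative of Cd55 in the mouse (Daf2) matched its transcript at 91.6% of 1157 bases, which makes the Cd55 count uncertain to an unknown extent.

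Tppp3, the cytoplasmic progenitor marker, was absent from more TPC-like cells than any other of the 9 genes. It had reads in 83.2% of WT and 84.7% of Mkx-/- TPC-like cells, and in 35.1% and 51.2% of TC-like cells. Its level was 567 CPM (WT) and 609 CPM (Mkx-/-) in TPC-like cells and 57.3 and 112.8 CPM in TC-like cells. In single WT TPC-like cells it ran from 0 to 3236 CPM with a median of 400, so cells without it and cells rich in it lay side by side in that state.

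Cd44 and Thy1, which the study had used together with Ly6a to name its progenitors, were the least restricted of the set besides Ly6c1. Cd44 stood at 2154 CPM (WT) and 2472 CPM (Mkx-/-) in TPC-like cells and at 632 and 833 CPM in TC-like cells, 3.41-fold and 2.97-fold. Every TPC-like cell had a Cd44 read, as did 68 of 74 WT and 79 of 80 Mkx-/- TC-like cells. At equal depth those TC-like shares were 85.1% and 96.25%. Single WT cells ranged from 31.5 to 5919 CPM (median 2197) in the TPC-like state and from 0 to 2634 (median 492) in the TC-like state. Thy1, a glycoprotein of fibroblasts and T cells, stood at 850 CPM (WT) and 1069 CPM (Mkx-/-) in TPC-like cells and at 295 and 369 CPM in TC-like cells, 2.88-fold and 2.90-fold. Single WT values of Thy1 were 0 to 3927 CPM (median 586) against 0 to 989 (median 230), and the cells with a read made up 93.5% and 93.2% of the 2 states. At equal depth those shares were 93.5% and 87.8%.

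**Figure D1:**
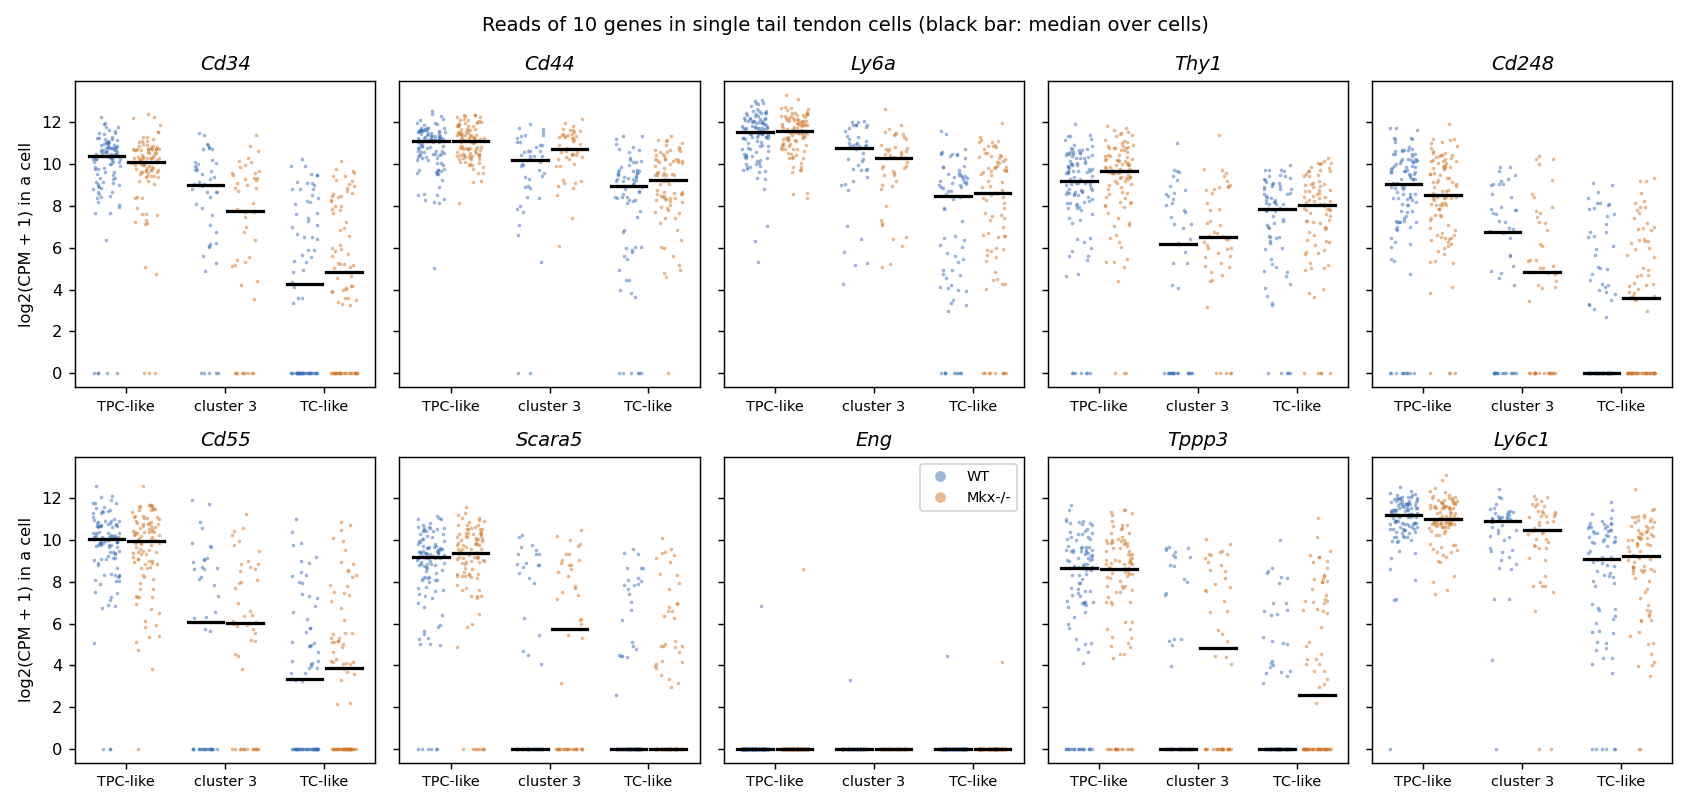
Each point is 1 cell, placed by state on the horizontal axis and by log2(CPM + 1) on the vertical axis, with WT cells in blue, Mkx-/- cells in orange and a black bar at the median over cells. Apart from Eng, which had reads in 5 cells, the medians are highest in the TPC-like state; for Thy1 they are lowest in cluster 3 and not in the TC-like state.

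Eng had almost no reads in any state. Its 33 reads lay in 5 cells, at 7 reads in a WT TPC-like cell, 1 in a WT cell of cluster 3, 7 in a WT TC-like cell, 14 in an Mkx-/- TPC-like cell and 4 in an Mkx-/- TC-like cell. The WT TC-like cell with 7 Eng reads also held reads of 7 of 8 endothelial markers (486 reads), whereas both Mkx-/- cells with Eng held none. In cluster 3, 0 of 46 Mkx-/- cells had a read (exact 95% interval 0% to 7.71%), which limits the share of cells with a read and not of cells that express the gene. No ratio is drawn for Eng, and it takes no part in the counts of 9.

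Cluster 3 lay between the other states for 8 of the 9 genes and below both for Thy1. Thy1 stood at 245 CPM under either label in cluster 3, under 295 and 369 CPM in TC-like cells, and its cluster 3 to TC-like log2 ratio was -0.27 (exact 95% interval -0.42 to -0.12) and -0.59 (-0.73 to -0.46). The opposite was seen for Cd44 and Ly6c1, which kept much of their TPC-like level in cluster 3 (1356 and 1923 CPM for Cd44, 1795 and 1782 CPM for Ly6c1). Between TPC-like cells and cluster 3, 5 of 9 members were at least 2-fold higher in WT cells, where 22% of 10836 genes were, and 7 of 9 in Mkx-/- cells, where 23.4% of 10852 genes were. Those 5 were Thy1, Cd248, Cd55, Scara5 and Tppp3, and Cd34 and Ly6a joined them in Mkx-/- cells at log2 ratios of 1.45 and 1.06, against 0.94 and 0.86 in WT. Against TC-like cells, 8 members in WT (background 31.9%) and 4 in Mkx-/- cells (background 24%) were at least 2-fold higher in cluster 3.

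The other genes in cluster 3 had the following levels, with WT first and Mkx-/- second. Cd34 stood at 725 and 465 CPM, and Ly6a at 1782 and 1628 CPM. Cd248 stood at 204.6 and 141.5 CPM. Cd55 stood at 385 and 293 CPM. These genes were lower under the Mkx-/- label, while Scara5 (221.7 and 236.4 CPM) and Tppp3 (206.1 and 207.6 CPM) differed by less than their counting error.

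**Figure D2:**
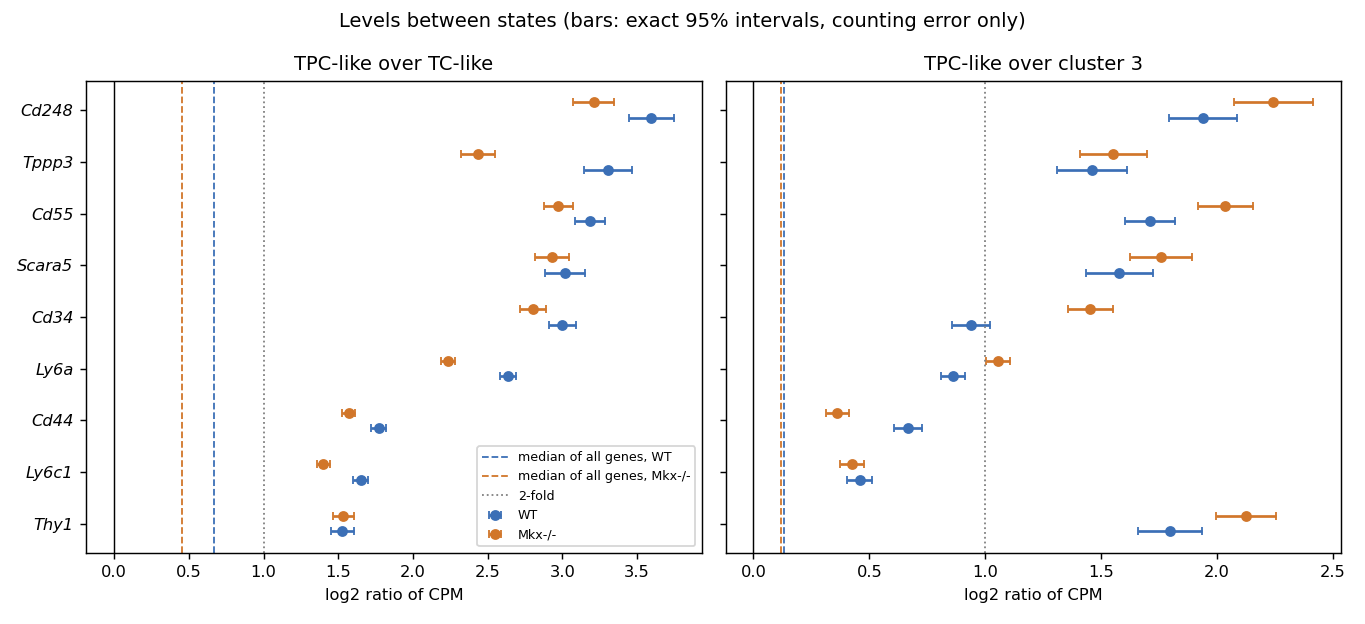
The horizontal axes give the log2 ratio of CPM of TPC-like cells to TC-like cells (left) and to cluster 3 (right) for 9 genes, with exact 95% intervals, WT in blue and Mkx-/- in orange, dashed lines at the median of all genes and a dotted line at 2-fold. On the left all points lie above 2-fold, from 1.40 for Ly6c1 in Mkx-/- cells to 3.60 for Cd248 in WT cells; on the right Cd44 and Ly6c1 lie below 2-fold in both genotypes.

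Counted together in a cell, the 10 genes were close to fully co-detected in TPC-like cells. At 28000 reads per cell, the median TPC-like cell held reads of 9 of the 10 in both genotypes (range 6 to 9 in 92 WT cells and 6 to 10 in 88 Mkx-/- cells). Since Eng was nearly absent, 9 was in effect the full set, and 71.7% of WT and 72.7% of Mkx-/- TPC-like cells held at least 9. The median was 7 in cluster 3 for both genotypes (ranges 3 to 9 and 5 to 9). TC-like cells held a median of 5 in WT (range 1 to 9) and 6 in Mkx-/- (range 2 to 9), and without thinning 6 and 7. The order of the states depended on how they were drawn: with the cells split into 3 equal groups by tenocyte markers and not thinned, the WT median was 8 in the group lowest in those markers and 9 in the middle group, and the Mkx-/- medians were 9 and 8. Carrying 4 or fewer of the genes was seen in 41.9% of WT and 31.2% of Mkx-/- TC-like cells but in 0 of 92 WT and 0 of 88 Mkx-/- TPC-like cells. In reads, the 10 genes together took a median of 364.5 (WT) and 376 (Mkx-/-) of 28000 reads in a TPC-like cell, 0.725% and 0.7125% of them in a cell of cluster 3, and 59 and 72.5 in a TC-like cell.

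**Figure D3:**
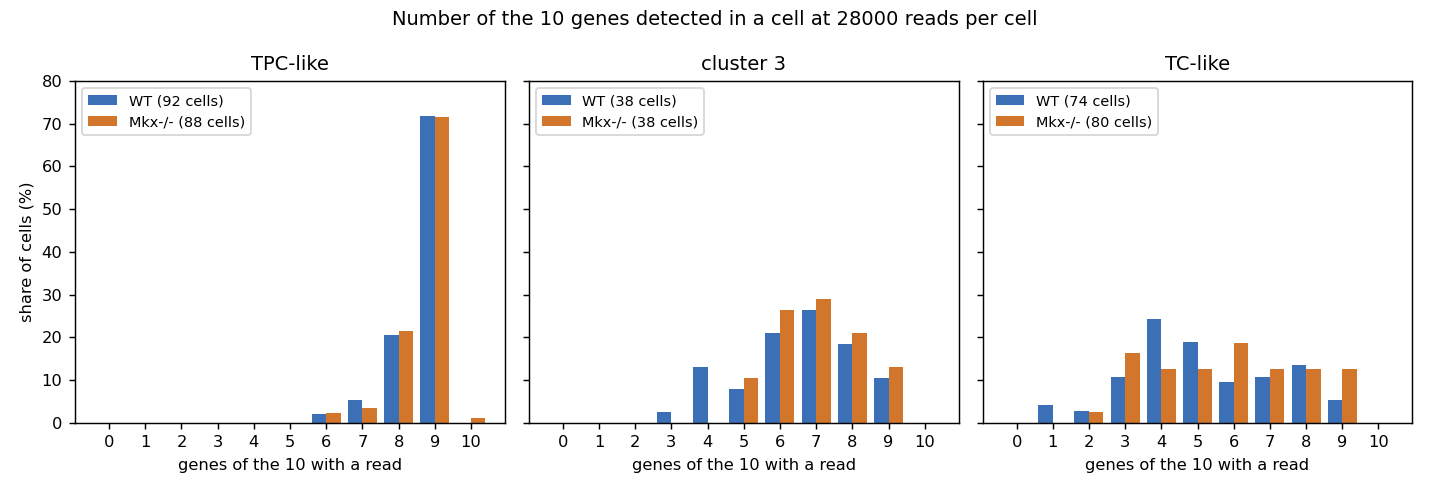
Bars give the share of cells (vertical axis, percent) with a given number of the 10 genes detected (horizontal axis) at 28000 reads per cell, for WT (blue) and Mkx-/- (orange) cells of each state. In the TPC-like state the bar at 9 is the tallest in both genotypes, with 66 of 92 WT and 63 of 88 Mkx-/- cells, and TC-like cells spread from 1 to 9.

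The genes were next compared by how far they rose and fell together from cell to cell. In all 410 thinned cells the 36 pairs of the 9 genes had a median Spearman rho of 0.48 (0.25 to 0.67), which contains the difference between states. Within TPC-like cells the median was 0.13 (-0.12 to 0.32), with 11 of 36 pairs below 0, where the median over all pairs of genes detected in at least 20% of those cells was 0.01. Within TC-like cells it was 0.38 (0.05 to 0.55) with 0 pairs below 0, where the median over all gene pairs was 0.02. Cells of a genotype come from 1 sample and share their library chemistry, so no p accompanies these values, and the difference between states was not tested. On reads that had not been thinned the median was 0.37 within the TPC-like state, against 0.45 within the TC-like state. The gap was smaller there, but these are counts not scaled for depth, so they contain the differences in depth between cells.

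In TPC-like cells the pairs with the highest rho joined Ly6a to Cd248 (0.32), to Thy1 (0.32) and to Ly6c1 (0.29). Cd44 stood apart there: its median rho with the 8 other genes was -0.03 (range -0.11 to 0.08), although every TPC-like cell held it. Ly6c1 was likewise near 0 with most partners (median -0.03) but not with Ly6a. The lowest pair was Cd34 with Ly6c1 at -0.12.

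In TC-like cells, Cd44 varied with the rest (median rho 0.43 with the 8 others). The highest pairs were Ly6a with Ly6c1 (0.55), Cd34 with Cd248 (0.55) and Cd34 with Ly6a (0.54). For Ly6a with Ly6c1, whose transcripts are alike, the part of shared reads was again not tested. Of 48 TC-like cells with Scara5, 43 also had Cd34. The share of cells with both was 1.59 times the product of the single shares, the highest such ratio of the 36 pairs. Thy1 was the exception in this state, with a median rho of 0.18 and a lowest value of 0.05 with Tppp3, and its co-detection with Tppp3 was 0.96 times the product. The median of that ratio over the 36 pairs was 1.08 in TC-like and 1 in TPC-like cells, where most genes were in nearly every cell and the ratio had little room to move.

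**Figure D4:**
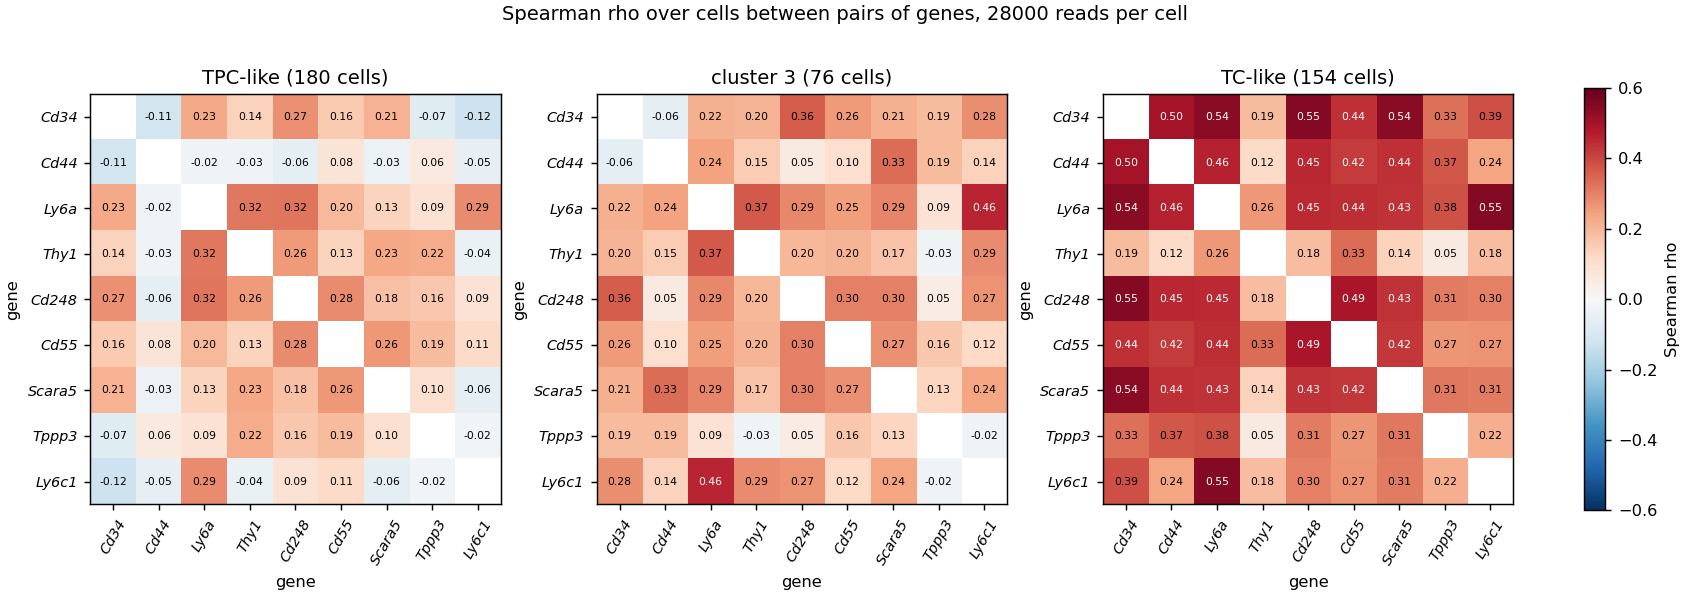
Each square is the Spearman rho over cells for 1 pair of genes named on the 2 axes, in TPC-like cells, cluster 3 and TC-like cells of both genotypes at 28000 reads per cell, red above 0 and blue below. The row of Cd44 is pale in TPC-like cells and red in TC-like cells, and the row of Thy1 is the palest in TC-like cells.

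TC-like cells that carried more of the 10 genes carried fewer reads of tenocyte markers. The summed reads of the 10 genes had a rho of -0.51 with the summed reads of the 6 TC markers in TC-like cells (-0.49 in 74 WT and -0.57 in 80 Mkx-/- cells), against -0.05 in TPC-like cells (0.08 in WT and -0.19 in Mkx-/- cells). In cluster 3 the sign differed between genotypes, at 0.33 in 38 WT and -0.40 in 38 Mkx-/- cells. With the 7 progenitor markers that are no members the rho was 0.64 in TC-like and 0.45 in TPC-like cells. With the number of genes detected at the fixed depth it was 0.56 in TC-like and 0.03 in TPC-like cells. At a fixed number of reads, a cell with fewer matrix reads has more reads left for every other gene, so these relations share their denominator, and its part in them was not tested.

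Between genotypes none of the 9 genes differed 2-fold over all cells, where 7.23% of 10963 genes were at least 2-fold higher and 6.12% at least 2-fold lower in Mkx-/- cells. The log2 ratios of Mkx-/- to WT ran from -0.30 (exact 95% interval -0.36 to -0.24) for Cd248 to 0.26 (0.23 to 0.28) for Cd44, with a median of 0.04 against 0.05 for all genes. Cd34 (-0.24) and Cd55 (-0.15) were lower, and Thy1 (0.25), Scara5 (0.19) and Tppp3 (0.14) higher, under each of the 10 alternative settings tried. For Ly6a (0.04) and Ly6c1 (-0.01) the sign depended on the setting. With 1 sample for each genotype, these differences cannot be told apart from differences between animals or chips.

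Within TPC-like cells the ratios were as small, from -0.23 for Cd248 to 0.33 for Thy1, and 0 of 9 passed 2-fold (background 12.2% higher and 10.7% lower). Cd248, Cd34, Cd55 and Ly6c1 had ratios below 0 and the other 5 genes above it. When the cells were instead ordered by their tenocyte markers and split into 3 equal groups, Cd34, Cd248 and Ly6c1 changed sign to 0.12, 0.32 and 0.13. Scara5 and Thy1 rose to 0.84 and 0.76 in that split, still under 2-fold. Cd55 and Ly6c1 changed sign when clustered without genes that differ between genotypes, Cd55 also on thinned reads, and Ly6a with 10 dimensions.

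In cluster 3 the ratios spread more, and 0 of 9 again passed 2-fold (background 18.9% higher and 19.9% lower). Cd34 was lowest at -0.64 (exact 95% interval -0.76 to -0.52), followed by Cd248 at -0.53 (-0.75 to -0.32) and Cd55 at -0.39 (-0.54 to -0.24), and Cd44 was highest at 0.50 (0.43 to 0.57). With 10 dimensions in the clustering Cd248 passed 2-fold in this state, at -1.35. Without cells carrying endothelial, mural or immune markers, Thy1 (0.002) and Tppp3 (0.01), both within counting error of 0, changed sign here. Thy1 had the same CPM in both genotypes, but 29 of 46 WT cells (63.04%; 47.5% to 76.8%) and 41 of 46 Mkx-/- cells (89.1%; 76.4% to 96.4%) held a read. At equal depth the shares were 63.2% and 86.8%, and a single WT cell carried 22.5% of the WT reads of Thy1 in cluster 3.

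In TC-like cells all 9 ratios were above 0, as were those of 60.9% of all genes, and the members' median was 0.32 against 0.20 for all genes. Again 0 of 9 passed 2-fold (background 17.9% higher and 11% lower). Tppp3 came closest at 0.98 (exact 95% interval 0.80 to 1.16), from 57.3 CPM in WT to 112.8 CPM in Mkx-/- cells. It had reads in 26 of 74 WT cells (35.1%; 24.4% to 47.1%) and 41 of 80 Mkx-/- cells (51.2%; 39.8% to 62.6%), and a single cell held 29.4% of its WT reads. Over the 10 alternatives its ratio ran from 0.78 to 1.39, and it passed 2-fold in 4 of them, among them the one without cells carrying endothelial, mural or immune markers. Ly6a (0.47), Cd44 (0.40), Scara5 (0.36) and Thy1 (0.32) kept their sign under every alternative tried, but Cd34 (0.07), Cd248 (0.16), Cd55 (0.15) and Ly6c1 (0.21) did not. The summed TC markers were at 317850 CPM in WT against 228592 CPM in Mkx-/- TC-like cells, and the part of that difference in the ratios was not tested beyond leaving out the 4 most abundant matrix genes or centring on the median gene.

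**Figure D5:**
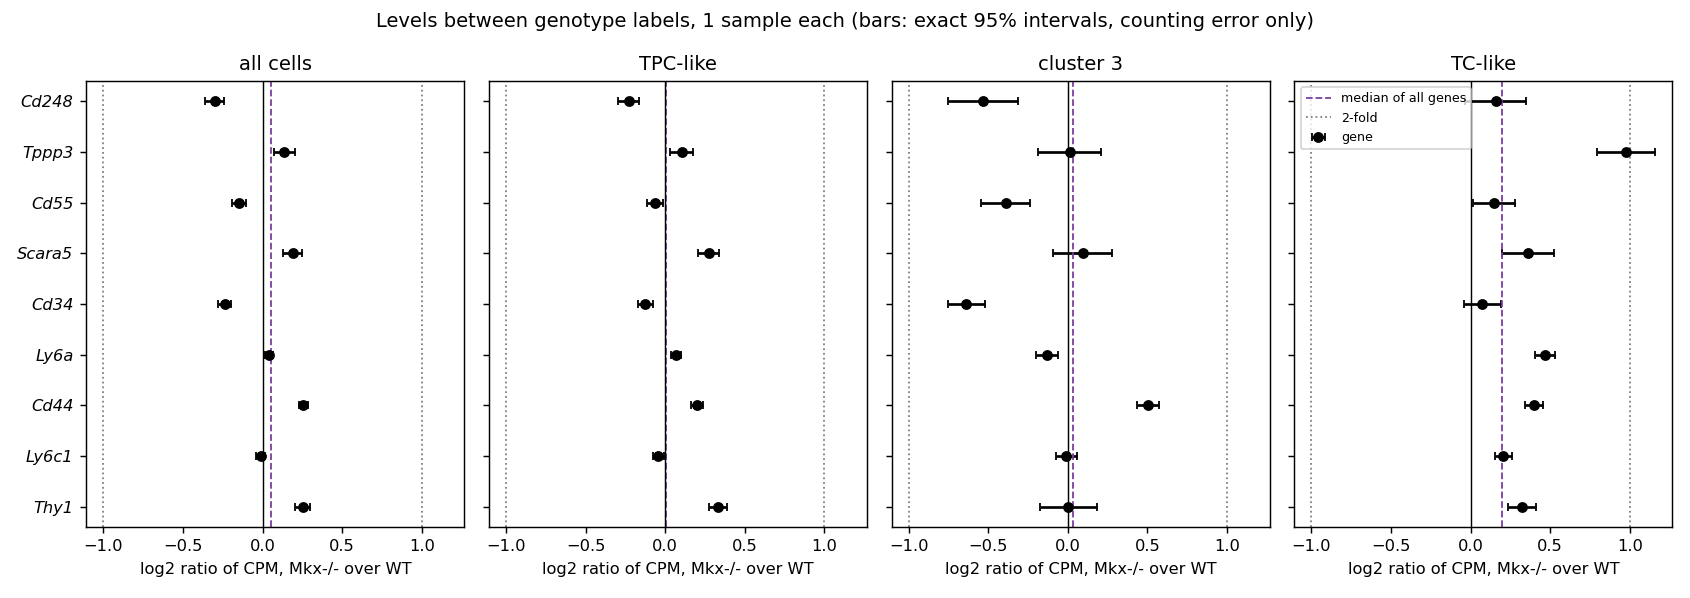
The horizontal axes give the log2 ratio of CPM in Mkx-/- to WT cells for 9 genes over all cells and within each state, with exact 95% intervals, a dashed line at the median of all genes and dotted lines at 2-fold. All points lie between the dotted lines, Tppp3 in TC-like cells being the nearest to one of them at 0.98.

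Among genes outside the set, 3 of the naming markers of the TPC-like state followed it most closely over cells. Of 4702 genes detected in at least 20% of the cells of each genotype, Fstl1, a secreted glycoprotein, had the highest rho with the summed members (0.82 in 227 WT and 0.87 in 224 Mkx-/- cells). The microfibril genes Fbn1 (0.80 and 0.84) and Mfap5 (0.75 and 0.75) came next, then Ugp2, Emilin2, Axl, Aspn and Olfml2a. Fstl1 was also the closest gene to Ly6a, Cd248, Cd55, Tppp3 and Ly6c1 taken singly, Fbn1 to Cd34 and Scara5, Ugp2 to Cd44 and Emilin2 to Thy1. These genes are high where the members are high, and Fstl1, Fbn1 and Mfap5 had also been used to name the TPC-like state, so the values describe one pattern of cells and not a separate finding.

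Other surface genes used for stromal and progenitor cells lay on both sides of the 2 states. Of 24 such genes, 16 had at least 100 reads, of which 7 were at least 2-fold higher and 4 at least 2-fold lower in TPC-like than TC-like WT cells, and 8 and 4 in Mkx-/- cells. Of all genes, 36.3% were higher and 9.66% lower in WT, and 28.7% and 10.3% in Mkx-/- cells. The median log2 ratio of the 16 was 0.70 in WT and 0.82 in Mkx-/- cells, against 0.67 and 0.46 for all genes. Those highest in TPC-like cells were Pi16 (log2 ratio 3.06 in WT and 2.74 in Mkx-/- cells), Cd200 (1.27 and, on few reads, 2.70), Ly6e (1.98 and 1.87) and Pdgfra (2.32 and 1.41), although Pdgfra was higher still in cluster 3. Pi16 and Pdgfra were among the naming markers of that state. The 4 lowest were Cd59a (-3.65 and -3.82), an inhibitor of complement like Cd55, Nt5e (-3.71 and -2.05), which is the mesenchymal marker CD73, the adhesion molecule Alcam (-2.50 and -2.11), and Vcam1 (-1.64 and -1.17). In TPC-like cells Cd59a had only 8 WT and 12 Mkx-/- reads, Nt5e 8 WT reads and Alcam 12 Mkx-/- reads. Cd55 and Cd59a, which both restrain complement, were thus on opposite sides of the 2 states in both genotypes. In WT cells, however, Cd59a was higher in cluster 3 (42.6 CPM) than in TC-like cells (19.05 CPM). Ly6c2, with 28 reads, was under the minimum for a ratio.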

How the data were processed

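The deposited table holds whole-number counts of reads for each gene in 227 WT and 224 Mkx-/- cells, which the authors did not normalize. By their methods, reads passed AfterQC and NGSQCToolkit, were aligned with Bowtie2 and were counted with featureCounts (versions, strand and handling of reads with several positions are not given in the sources used here). The methods name mm9 and the submitters' processing notes mm10. Of 48795 symbols, 34106 matched RefSeq on GRCm38.p6 and 28993 GENCODE M1 on mm9, which does not settle the build. The 10 genes and all lists were chosen with earlier results of these data known.

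Cells were clustered with Seurat 5.3.0 (R 4.3.3) on the union of the 1000 most variable genes per genotype without the 10 genes, with canonical correlation anchors, 4 dimensions and resolution 0.4. No cell was removed, no doublet caller was run (the submitters left out wells with several cells) and 0 columns were unused. A cluster needed 3 markers for a name.

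Counts were summed over the cells of a state and divided by their total to give CPM. Ratios have exact conditional binomial, levels exact Poisson and shares exact Clopper-Pearson 95% intervals. They cover counting error only, since reads are not molecules. Counts of genes past 2-fold used genes with at least 100 reads, and a sum of 0 was set to 3 reads. Thinning drew 28000 reads per cell. Likeness was Spearman's rho of log2(CPM + 1) over cells, and the 8 closest genes were named. Of the other surface genes, the 4 highest and 4 lowest by the mean TPC-like to TC-like log2 ratio were named, with Ly6c2 and Pdgfra. Transcript comparisons used GENCODE M1 sequences. Scripts ran in Python 3.11.15 with numpy 2.4.6, pandas 2.3.3 and scipy 1.17.1, and the intervals, the thinning and the likeness were tested on simulated counts. The alternatives changed the scaling, the read minimum, the cells used, the thinning and the clustering. No p-value was computed.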

Additional observations from a re-analysis of the deposited data

Results flagged for a closer look

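Cd55 had a log2 ratio of Mkx-/- to WT of -0.065 in TPC-like cells and 0.15 in TC-like cells, so its direction was opposite in the 2 states, with counting intervals on either side of 0. The ratio in TPC-like cells turned positive on reads thinned to 28000 per cell, and that in TC-like cells turned negative when centred on the median gene.

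Ly6c1 had a log2 ratio of -0.043 in TPC-like cells and 0.21 in TC-like cells, again in opposite directions. With cells ordered by tenocyte markers and split into 3 groups the signs were exchanged, at 0.13 and -0.01. The difference between states was not tested for either gene, since each genotype was 1 sample, and 2126 of 10828 genes (19.6%) moved in opposite directions in these 2 states by the same criterion.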

How the results depend on the processing

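No paired analysis was possible because each genotype was 1 sample and the numbers of the cells pair nothing. Of the values that answer a comparison, 11 moved under an alternative. A small change in a count was not scored as a move, so the loss of Thy1 and Ly6c1 from the WT count of TPC-like over TC-like genes on centring is not among them. The count of genes at least 2-fold higher in Mkx-/- TC-like cells rose from 0 to 1 (Tppp3) with the mean of per-cell CPM, on thinned reads, without the leading cell and without cells carrying endothelial, mural or immune markers. The count lower in cluster 3 rose from 0 to 1 (Cd248) with 10 dimensions. With cells split into 3 groups by tenocyte markers, the WT median of genes per cell was 8 in TPC-like cells and 9 in the middle group. When a gene counted as detected only from 3 reads on, TC-like cells held a median of 4 (WT) and 5 (Mkx-/-). Without thinning, on counts not scaled for depth, the median rho of TPC-like pairs was 0.37. With any read in place of 100, 7 of the other surface genes were at least 2-fold lower in WT TPC-like cells. Of the values for single genes and the medians of pairs in TC-like cells, 373 were scored as unchanged and 228 as moved. Single genes were judged by their counting interval, and pairs by the difference between the genotypes or a fixed minimum. Among the TPC-like to TC-like ratios, 0 changed sign. The alternatives that change the state names moved 3 cells (members kept in the clustering), 28 (10 dimensions), 42 (without genes that differ between genotypes) and 35.03% of all cells (3 groups by tenocyte markers). For ratios of genotypes within states, the settings without 4 matrix genes, without cells carrying those markers, centred on the median gene or clustered without differing genes were chosen after the data had been seen, as was every alternative for pairs in TC-like cells. Depth limits Eng, for which 33 reads cannot give a level by state. The cause of these shifts was not tested.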
